A study of Mus musculus with 6 samples.

Results

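The AP-1 and immediate early genes examined here were 10 genes, Fos, Fosb, Jun, Junb, Jund, Atf3, Batf3, Egr1, Ier3 and Dusp1, out of 19057 genes with a named probe on the array. All probes carrying one of these symbols in the platform annotation were taken, which gave 12 of the 45281 probes. Junb and Batf3 had 2 probes each and the other genes 1. Illumina bead arrays, on which the brightness of a probe reads the amount of its transcript, had been hybridised with total RNA of 3 liver tumours and of the tissue next to each. All animals were C57BL/6J mice aged 6 months. Every animal had been injected through the superficial temporal vein, on the day after birth, with 3e+10 particles of AAV-Rian-CMV, an adeno-associated virus vector aimed at the Rian locus. Tumour and adjacent groups therefore shared strain, age and vector, and liver without the vector was not analysed here. By the sample titles each tumour was paired with liver of the same animal (1293, 1309 and 1316). The labels of the 1316 tumour disagree, because its source field carries another animal number, so calls of the 10 genes, the lists and the markers that changed without this animal are given both ways.

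AP-1 is a family of dimeric transcription factors built from Fos, Jun, ATF and BATF proteins that grip DNA through a basic region and pair through a leucine zipper. Fos proteins need a Jun partner, whereas Jun proteins can also pair with each other. The genes for several subunits, like that of the zinc finger factor Egr1, are immediate early genes: growth factors, cytokines and stress switch them on through MAP kinases without new protein synthesis, and feedback genes such as Dusp1 shut the signal down again. In mouse liver these genes are known for their rapid induction when hepatocytes are pushed to divide, as after removal of liver lobes.

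Several of these genes are known to respond through the CRE, a cyclic AMP and stress response element bound by CREB and ATF factors, so their promoter sequences are shown first. The 250 bases before the start were read from RefSeq (GRCm38.p6) for 9 of the 10 genes, all but Egr1, and the search covered both strands. The CRE core, TGACG or its reverse complement CGTCA, was found in 5 of the 9, in Fos, Fosb, Junb, Atf3 and Dusp1, against 17.8% of 32851 windows of the same length. The full palindrome TGACGTCA, which holds the core on each strand, was found in Dusp1, where it accounts for 2 of the 3 core matches, against 1.55% of windows. The TATA box letters TATAAA were found in Fos, against 12.4% of windows. No window of the 9 held the CArG box by its strict consensus (1.47% of windows), the AP-1 site TGACTCA or TGAGTCA (4.46%) or the EGR site GCGTGGGCG (0.536%). Each search needed every letter to match, so a variant such as TGACATCA, present in the Jun window, was not counted. Bases further upstream and the Egr1 promoter were not searched, so sites there are not covered. Of the 5 genes that were higher in tumours, 3 carried the core, and of the 4 with a window that did not pass, 2 did. Windows are shown for the 3 that rose with the core and for Junb, which holds it and did not rise. They lie at chr12:85473640-85473889 on the plus strand for Fos and, on the minus strand, at chr1:191183334-191183583 for Atf3, chr17:26508473-26508722 for Dusp1 and chr8:84978749-84978998 for Junb. Counting back from −1 at the base before the start, the core begins at −129 and −66 in Fos, −106 in Junb and −7 in Atf3, and the Dusp1 palindrome at −143. Sequences run 5′ to 3′ along the gene, with the CRE letters and, in Fos, the TATA letters in capitals.
Fos: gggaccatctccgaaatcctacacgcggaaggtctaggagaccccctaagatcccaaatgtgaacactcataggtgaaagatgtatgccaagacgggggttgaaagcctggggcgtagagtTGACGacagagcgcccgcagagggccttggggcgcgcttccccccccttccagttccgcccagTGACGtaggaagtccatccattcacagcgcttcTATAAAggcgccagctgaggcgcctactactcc
Atf3: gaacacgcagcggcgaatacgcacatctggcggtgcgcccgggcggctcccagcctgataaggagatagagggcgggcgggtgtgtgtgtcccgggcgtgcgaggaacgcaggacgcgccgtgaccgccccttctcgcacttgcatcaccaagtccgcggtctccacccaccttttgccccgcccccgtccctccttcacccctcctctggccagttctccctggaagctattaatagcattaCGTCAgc
Dusp1: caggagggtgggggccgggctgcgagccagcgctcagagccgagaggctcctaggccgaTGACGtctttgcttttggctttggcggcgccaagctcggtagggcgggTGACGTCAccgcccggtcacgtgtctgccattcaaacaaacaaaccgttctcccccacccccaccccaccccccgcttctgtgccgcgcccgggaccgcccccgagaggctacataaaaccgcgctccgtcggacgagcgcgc
Junb: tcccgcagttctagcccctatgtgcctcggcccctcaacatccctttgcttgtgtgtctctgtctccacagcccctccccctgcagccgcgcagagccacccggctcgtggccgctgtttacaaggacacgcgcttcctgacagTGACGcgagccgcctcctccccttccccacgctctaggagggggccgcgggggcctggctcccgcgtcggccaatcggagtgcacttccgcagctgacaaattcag
A match describes these letters alone, and no binding was measured.

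The arrays were alike in overall brightness, with median raw signals of 138.4 to 160.5 and 29.2% to 31.7% of probes above the background level estimated for each array. Precision is limited by there being only 3 arrays in a group. Of 8 hepatocyte markers, 7 read above background on at least 3 arrays, and Tat was below it on all 6. Of the 8, 1 was higher in tumours and 1 lower, where 3.64% of all genes were called higher and 1.56% lower. Cps1, a urea cycle enzyme, was higher (0.59 on the log2 scale, SE 0.14, adjusted p = 0.044, limma), and did not pass without animal 1316 (0.41, adjusted p = 0.378). Alb, the gene for albumin, was lower (−0.84, SE 0.15, adjusted p = 0.00824, limma), on a probe that read only 7.59 to 7.79 in adjacent liver and 6.57 to 7.06 in tumours, near background, and also without animal 1316 (−0.73, adjusted p = 0.0446). The summed normalized signal of the 8 markers was 228327 to 239162 in adjacent liver and 180663 to 239564 in tumours. Values below are normalized log2 signals, and differences are tumour minus adjacent on that scale, where 1 unit is a doubling. Being bulk tissue, the samples cannot tell apart fewer cells of a type from less RNA per cell.

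Of the 10 genes, 5 were higher in tumours and 0 lower at an adjusted p under 0.05 (limma, adjusted over all 45281 probes). Over all genes on the array, 3.64% were called higher and 1.56% lower. Fos had the largest difference of the 10, followed by Atf3, Batf3, Ier3 and Dusp1. The Jun family, Fosb and Egr1 did not pass in either direction. In 5 of the 10 genes, the same 5 that were called, each tumour lay above each adjacent liver, a separation also seen in 11.6% of all genes. For 0 of the 10 genes did each tumour lie below each adjacent liver, a pattern met in 11.0% of all genes. Counted by probe, 6 of 12 were higher, against 2.30% of all probes. The median difference over the 10 genes was 0.67 and that over all genes −0.01. Because the 10 genes were picked with earlier results of these arrays known, their count describes them and is no independent evidence.

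**Figure D1:**
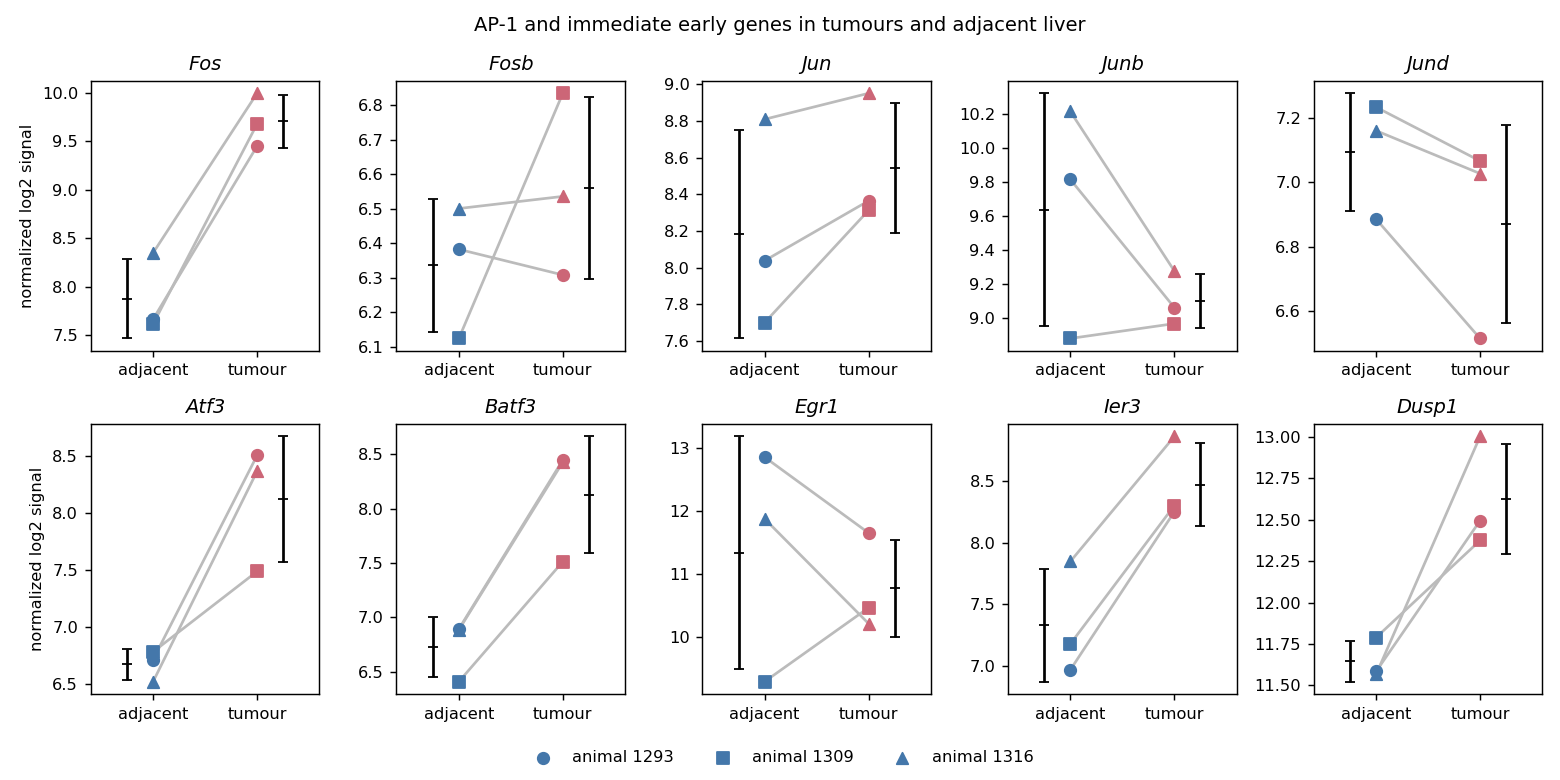
Normalized log2 signal (y axis, a separate scale per gene) of the 10 genes in adjacent liver and tumours, with 1 symbol per animal, grey lines joining tissues of the same animal, and black bars for mean ± SD (n = 3). Fos, Atf3, Batf3, Ier3 and Dusp1 rise in all 3 animals, while Egr1 and Junb fall in animals 1293 and 1316 and not in 1309.

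Fos, the subunit that activates transcription as a partner of Jun, read 7.66, 7.61 and 8.35 in the adjacent livers of animals 1293, 1309 and 1316, and 9.45, 9.68 and 9.997 in their tumours. The groups were well apart, the lowest tumour lying above the highest adjacent liver. Its raw signal went from 239.5, 252.4 and 398.4 in adjacent liver to 704.7, 934.7 and 1267.2 in tumours. The difference was 1.83 (SE 0.20, 95% interval 1.40 to 2.27, adjusted p = 0.00028, limma), or 3.57-fold. Within animals it was 1.79, 2.07 and 1.65. Fos passed under all 16 alternative settings, with differences of 1.59 to 2.06.

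Fosb, a close relative of Fos that is likewise induced early, was below the background level on all 6 arrays, with signals of 6.12 to 6.50 in adjacent liver and 6.31 to 6.83 in tumours. Its difference of 0.22 (SE 0.16, 95% interval −0.12 to 0.57, adjusted p = 0.622) did not pass, and at these signals no fold can be read. Whether Fos and Fosb responded differently was not tested.

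Jun, the subunit that pairs with Fos and with itself, read 8.04, 7.70 and 8.81 in adjacent liver and 8.36, 8.31 and 8.95 in tumours. The ranges overlapped, since the adjacent liver of animal 1316 exceeded the tumours of the other animals, although each tumour was above its own adjacent liver, by 0.33, 0.61 and 0.14. The difference of 0.36 (SE 0.25, 95% interval −0.19 to 0.91, adjusted p = 0.614, limma) did not pass. Whether Fos and Jun responded differently was not tested. The animals ranked in the same order in both tissues, with 1316 highest and 1309 lowest.

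Junb, a Jun protein that in many settings restrains Jun, read 9.82, 8.88 and 10.22 in adjacent liver and 9.06, 8.97 and 9.28 in tumours. The tumours formed a narrow group (9.10 ± 0.16, SD, n = 3), whereas the adjacent livers were spread over more than 1 unit (9.64 ± 0.68), with that of animal 1309 below all tumours. The difference of −0.53 (SE 0.26, 95% interval −1.11 to 0.04, adjusted p = 0.395, limma) did not pass. It turned on 1 array: without the adjacent liver of animal 1309 the difference was −0.91 (adjusted p = 0.0219), the 1 of 16 settings in which Junb was called. On the other Junb probe, which no array read above background, the difference was 0.01 (SE 0.14).

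Jund, the Jun protein that is usually present before stimulation, read 6.89, 7.23 and 7.16 in adjacent liver and 6.51, 7.07 and 7.03 in tumours. These signals were at the edge of detection, above background on 2 of 3 arrays in each group and below it in both tissues of animal 1293. Each tumour was below its own adjacent liver, by 0.37, 0.17 and 0.13, but the difference of −0.22 (SE 0.17, 95% interval −0.59 to 0.14, adjusted p = 0.645) did not pass.

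**Figure D2:**
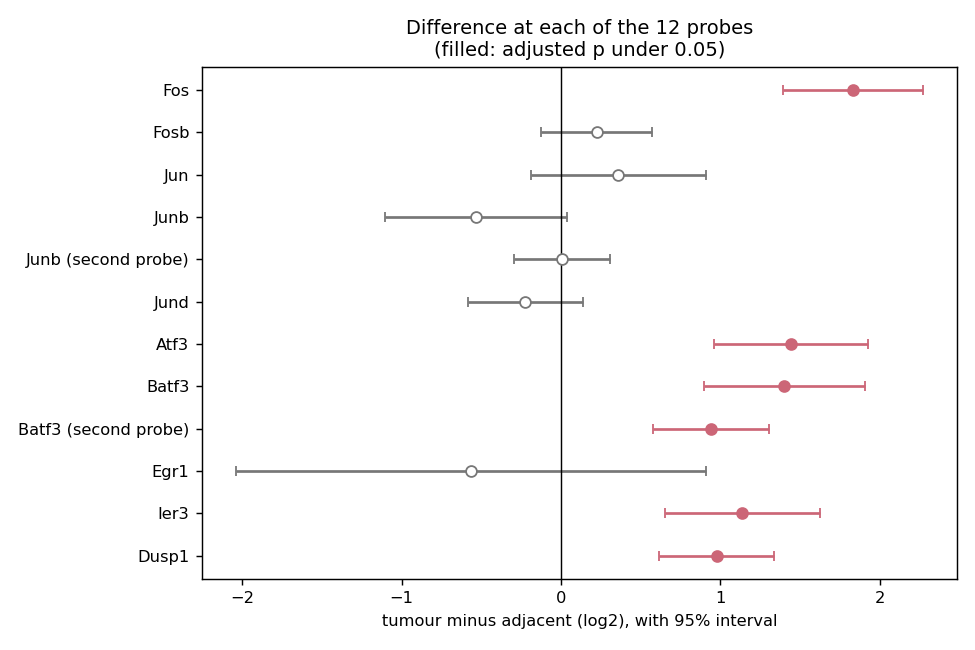
Difference between tumours and adjacent liver (x axis, log2) with its 95% interval for each of the 12 probes, filled where the adjusted p is under 0.05. The 6 filled probes belong to Fos, Atf3, Batf3, Ier3 and Dusp1 and lie between 0.94 and 1.83, and Egr1 has the widest interval, from −2.04 to 0.91.

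Atf3, an ATF-family subunit induced by many stresses that acts mostly as a repressor when paired with itself, was not above background in any adjacent liver, where it read 6.72, 6.78 and 6.52. It was above background in all 3 tumours, at 8.50, 7.49 and 8.36, so the groups did not overlap and the tumour of animal 1309 was the lowest of the 3. Against the detection limit the tumours were at least 2.25-fold higher (fitted difference 1.44, SE 0.22, adjusted p = 0.0035, limma). Within animals the differences were 1.78, 0.70 and 1.84. Atf3 kept its call when any single array was left out. With both arrays of animal 1316 left out it missed the threshold at 1.21 (adjusted p = 0.0567), a setting added after the data were seen.

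Batf3, a small AP-1-like protein known for its need in the development of cross-presenting dendritic cells, showed the same pattern on both probes. The brighter probe read 6.89, 6.41 and 6.88 in adjacent liver, below background, and 8.45, 7.51 and 8.43 in tumours, at least 2.27-fold higher (fitted difference 1.40, SE 0.23, adjusted p = 0.00546, limma). The other probe went from 6.54, 6.31 and 6.74 to 7.60, 7.14 and 7.68, at least 1.44-fold higher (fitted difference 0.94, SE 0.17, adjusted p = 0.00883). On both probes all tumours were above all adjacent livers, and the tumour of animal 1309 was again the lowest. The brighter probe passed under all 16 settings. Among 7 dendritic cell markers 0 were called in either direction. Xcr1, a defining marker of the Batf3-dependent type, was below background on all 6 arrays, at 6.07 to 6.25 in adjacent liver and 6.27 to 6.29 in tumours. Clec9a, the other defining marker, was above background in the tumours of 1293 and 1316 only (7.25 and 7.26, with 6.64 in that of 1309) and in no adjacent liver (6.49 to 6.61), with a difference of 0.49 (SE 0.17, adjusted p = 0.169). The summed signal of the 7 markers was 593 to 650 in adjacent liver and 650.3 to 780 in tumours. Only 1 of the 7 was above background on at least 3 arrays, so this sum is mostly background. Their part in the Batf3 difference was not tested.

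Egr1, a zinc finger factor of the immediate early response, varied more between animals than between tissues. The adjacent livers read 12.85 (animal 1293), 9.29 (1309) and 11.88 (1316), and the tumours 11.65, 10.47 and 10.21. In raw signal the adjacent livers spanned 671.3 to 6792.1 and the tumours 1459.9 to 2939.3. The difference was −0.56 (SE 0.68, 95% interval −2.04 to 0.91, adjusted p = 0.812, limma). Within animals Egr1 was lower in the tumours of 1293 and 1316, by −1.20 and −1.66, and higher in that of 1309, by 1.17. The sign depended on 1 array, since without the adjacent liver of 1293 the difference was 0.19 (adjusted p = 0.942), and without that of 1309 it was −1.58 (adjusted p = 0.0739). Junb split the animals in the same way, with −0.75, 0.09 and −0.94 for 1293, 1309 and 1316. Some genes outside the 10, such as Zfp36 and Socs3, split this way too. The adjacent liver of 1309 was the lowest of the 6 arrays for Egr1 and Junb, and also for Fos, Fosb, Jun and Batf3.

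Dusp1, a phosphatase that switches MAP kinases off and is itself an immediate early gene, read 11.58, 11.79 and 11.57 in adjacent liver, a tight group with an SD of 0.12 (n = 3). The tumours read 12.49, 12.37 and 13.00, all above it. The difference was 0.98 (SE 0.17, 95% interval 0.62 to 1.34, adjusted p = 0.00633, limma), 1.97-fold, and passed under all 16 settings. The animals differed in size, with 0.91, 0.59 and 1.44.

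Ier3, which protects cells from apoptosis and is induced early by growth factors and stress, read 6.97, 7.18 and 7.85 in adjacent liver and 8.25, 8.30 and 8.86 in tumours, without overlap. The adjacent liver of 1293 was just above background, at a raw signal of 177.5 against a level of 177.0. The difference was 1.14 (SE 0.22, 95% interval 0.65 to 1.63, adjusted p = 0.0155, limma), 2.20-fold, and was similar within animals at 1.28, 1.12 and 1.01. It was the least steady of the 5 calls. It passed in 12 of 16 settings, and the misses were without the adjacent liver of 1293 (adjusted p = 0.0549), without that of 1309 (adjusted p = 0.0731), and, at the same adjusted p = 0.0575, without background correction and in the authors' processed table.

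**Figure D3:**
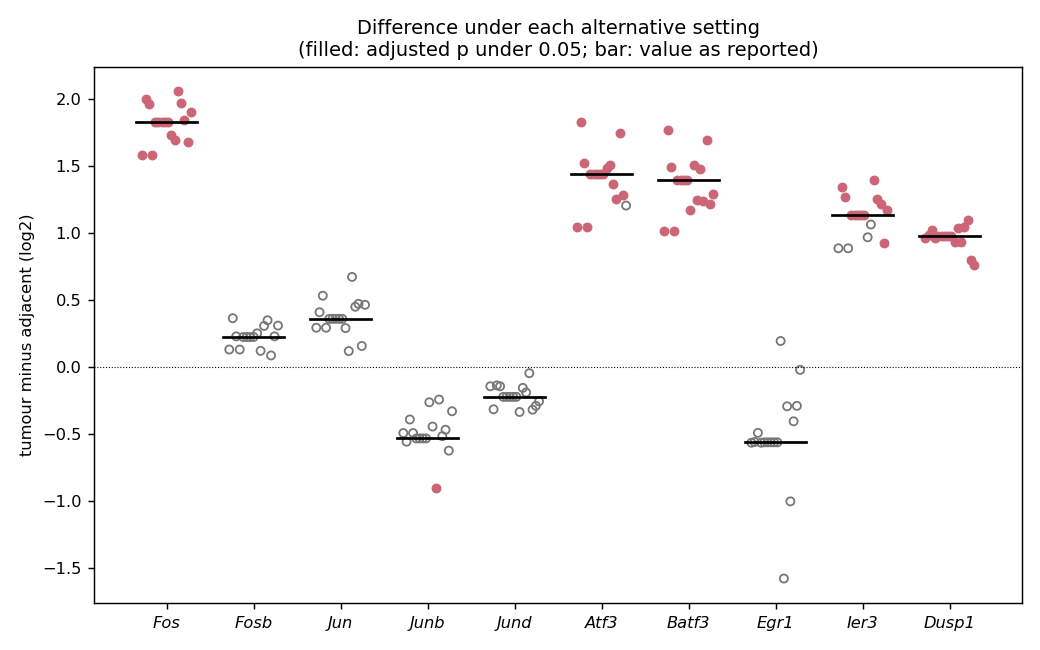
Difference between tumours and adjacent liver (y axis, log2) for each gene under each alternative setting, 15 for Fosb and 16 for each other gene, filled where the adjusted p is under 0.05, with a bar at the value as reported. Fos, Batf3 and Dusp1 are filled throughout, Atf3 misses once at 1.21, and Egr1 spans −1.58 to 0.19.

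The remaining AP-1 subunits did not follow Fos, Atf3 and Batf3 past the threshold. Of 12 measured, among them Fosl2, Atf2, Atf7 and the Maf proteins, 0 were called higher and 0 lower (limma), and 0 were called under any of the 16 settings. Across all genes 3.64% were higher and 1.56% lower. Their differences lay between −0.44 and 0.41, with a median of 0.03. Each tumour lay above each adjacent liver in 1 of the 12 (Fosl2), against 11.6% of all genes. Each lay below in 2 (Atf7 and Mafg), against 11.0%. Only 4 were above background on at least 3 arrays. These 4, named after their values were seen, were Fosl2, a Fos relative, at 0.41 (SE 0.16, adjusted p = 0.252), Atf2 at −0.29 (SE 0.14, adjusted p = 0.394), Atf7 at −0.44 (SE 0.12, adjusted p = 0.0863) and Mafg at −0.22 (SE 0.12, adjusted p = 0.473). The other Fosl2 probes, below background on all arrays, differed by −0.14 and −0.13.

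Among 42 other immediate early and early response genes, 4 were higher and 0 lower, a share of 4 in 42 beside the 3.64% of all genes given above, and the list median was 0.05. Plk3, a polo-like kinase of the stress response, read 10.68, 10.92 and 10.93 in adjacent liver and 12.37, 12.38 and 13.25 in tumours (difference 1.82, SE 0.21, adjusted p = 0.000434, limma). Gadd45g, a growth arrest and stress gene, went from 11.43, 11.26 and 10.25 to 12.73, 12.37 and 13.27 (1.81, SE 0.29, adjusted p = 0.00406), and its other probe differed by 1.87. Sgk1, a kinase induced by serum and glucocorticoids, went from 10.55, 10.21 and 10.39 to 11.92, 11.40 and 12.05 (1.41, SE 0.17, adjusted p = 0.00073). Csrnp1, a nuclear protein induced by AXIN signals, rose by 1.001 (SE 0.17, adjusted p = 0.00708). Each tumour lay above each adjacent liver in 7 of the 42 genes, these 4 among them, and in 11.6% of all genes.

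Genes near the threshold depended on whether the animal entered the fit. With the animal as a block 5 of the 42 were higher and 1 lower, where 4.55% of all genes were higher and 3.11% lower. The gene added on the higher side was Klf6, a zinc finger factor (0.94, adjusted p = 0.0806 without the block and 0.00295 with it), whose other probe differed by 0.05. The 1 lower gene was Nfkbia, the NF-kappa-B inhibitor (−0.84, adjusted p = 0.0618 without the block and 0.0291 with it), with −0.61 on its other probe. Without the tumour of animal 1309, 7 of the 42 were higher and 1 lower, in a fit that called 4.82% of all genes higher and 3.46% lower. Without both arrays of animal 1316, 4 were higher and 0 lower, with Plk3 at 1.59, Gadd45g at 1.22, Sgk1 at 1.28 and Csrnp1 at 1.05. Myc did not pass (0.57, SE 0.14, adjusted p = 0.0519) and was above background in 1 tumour and in 0 adjacent livers.

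**Figure D4:**
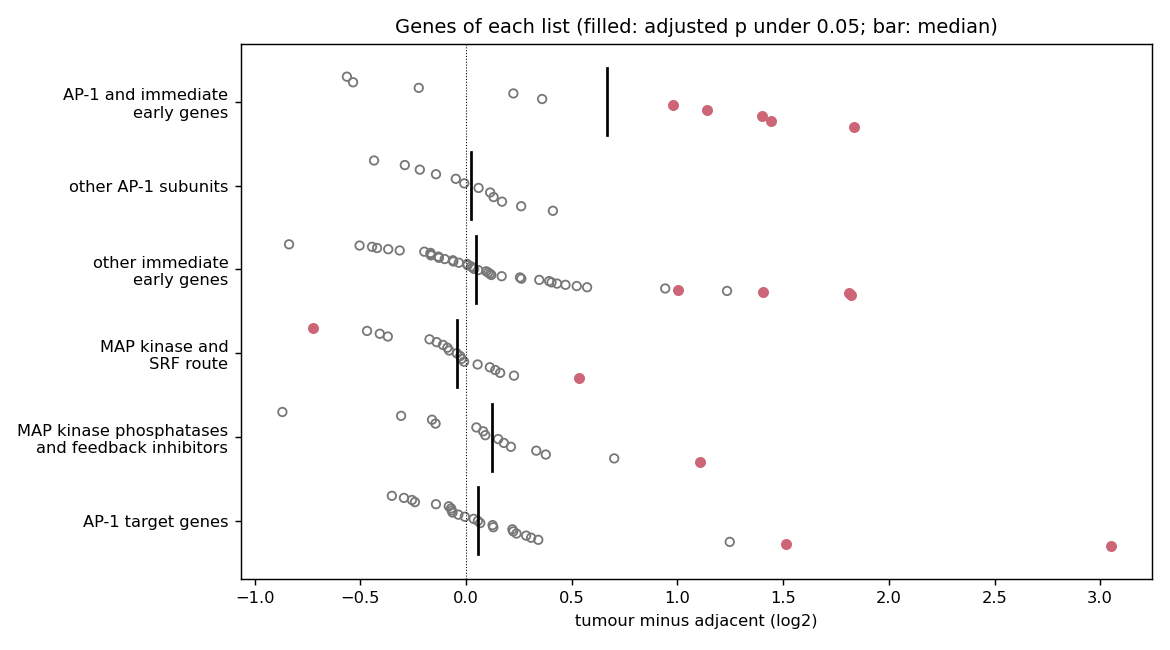
Difference between tumours and adjacent liver (x axis, log2) for each gene of 6 lists (rows), filled where the adjusted p is under 0.05, with a bar at the list's median. Medians are 0.67 for the 10 AP-1 and immediate early genes and between −0.04 and 0.12 for the others.

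Upstream of the immediate early genes, 19 of 26 listed genes of the MAP kinase and SRF route were measured, from growth factor receptors to the factors that act on these promoters. Of these, 1 was higher and 1 lower, where 3.64% of all genes were higher and 1.56% lower. Map2k4, a kinase that activates the Jun kinases, rose by 0.53 (SE 0.13, adjusted p = 0.0427, limma), with 0.34 on its other probe (adjusted p = 0.215). Mapk8, a Jun kinase gene, read 8.60, 8.35 and 8.81 in adjacent liver and 7.74, 8.17 and 7.67 in tumours, a difference of −0.73 (SE 0.17, adjusted p = 0.0338). Its 3 other probes did not follow, at −0.01, −0.19 and 0.04. Neither call held with probes of a gene averaged, and both were lost when either array of animal 1316, the adjacent liver of 1293 or the tumour of 1293 was left out. Map2k4 was also lost without the adjacent liver of 1309. Mapk9, the gene of another Jun kinase, did not pass on its brightest probe (0.16, adjusted p = 0.715), while another of its probes, above background on all 6 arrays, was higher (0.81, SE 0.19, adjusted p = 0.0366, limma). Srf itself did not pass.

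Beside Dusp1, 14 other MAP kinase phosphatases and feedback inhibitors were measured, and 1 was higher and 0 lower. Among all genes 3.64% were higher and 1.56% lower. Dusp8, a phosphatase of the Jun and p38 kinases, read 6.92, 6.93 and 6.42 in adjacent liver, not above background, and 7.82, 7.48 and 8.29 in tumours, at least 1.89-fold higher (fitted difference 1.11, SE 0.20, adjusted p = 0.0102, limma), and its other probe read 0.85 (adjusted p = 0.0543). The count was 0 when the adjacent array of 1316, the tumour array of 1293 or both arrays of 1316 were left out. Dusp4 joined it with the animal as a block (0.70, adjusted p = 0.0763 without and 0.0115 with the block), and of its 3 other probes 1 passed without the block (0.75, adjusted p = 0.0172). Spred1, an inhibitor of Ras signalling, read −0.87 (adjusted p = 0.0537).

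Of 25 measured genes with AP-1 sites in textbook accounts, 2 were higher and 0 lower, and the median was 0.06. The shares over all genes were 3.64% higher and 1.56% lower. Mmp13, a collagenase, was not above background in adjacent liver (6.54, 6.74 and 6.54) and read 8.29, 7.79 and 8.28 in tumours, at least 2.26-fold higher (fitted difference 1.51, SE 0.15, adjusted p = 0.000156, limma). Its 2 other probes were below background throughout and read −0.07 and −0.05. Cxcl10, a chemokine that interferons also induce, read 7.60, 6.52 and 7.54 in adjacent liver and 10.64, 9.04 and 11.13 in tumours (3.05, SE 0.43, adjusted p = 0.00212), while its other probe, above background in 2 tumours, differed by 0.95 (adjusted p = 0.106). Without both arrays of animal 1316 both genes still passed, Mmp13 at 1.36 and Cxcl10 at 2.74. In Cxcl10 and Mmp13 the tumour of 1309 was the lowest of the 3, as in Atf3, Batf3, Dusp1, Gadd45g, Sgk1, Csrnp1, Map2k4 and Dusp8. It was not the lowest in Fos, Ier3 or Plk3.

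Markers of other cell types were read beside these differences, and their counts stand beside the 3.64% of all genes called higher and 1.56% lower. Of 8 Kupffer cell and macrophage markers 0 were called, with summed signals of 4168 to 7006 in adjacent liver and 2189 to 4976 in tumours, and the defining markers Adgre1 and Clec4f were above background on all 6 arrays. Clec4f, made by Kupffer cells, read 10.60, 10.22 and 10.71 in adjacent liver and 9.57, 10.35 and 7.22 in tumours (−1.46, SE 0.56, adjusted p = 0.232), and the difference was −0.45 without animal 1316. Of 8 T and NK cell markers 0 were called, and of 3 B and plasma cell markers 0, with sums of 245 to 287 and 245 to 298 for the latter. In both lists 0 markers were above background on at least 3 arrays, so neither sum can measure cell content. The T and NK cell sum was 668 to 721 in adjacent liver and 745 to 760.5 in tumours, with Cd3e and Cd3d above background on 2 and 1 of 6 arrays. Of 5 neutrophil markers 0 were called, with sums of 988 to 2277 and 851 to 1516, and S100a8 and S100a9 were above background throughout. Of 7 endothelial markers 0 were called, with sums of 6610 to 9661 and 5522 to 7295. With the animal as a block 1 of them, Lyve1, a hyaluronan receptor of sinusoidal endothelium, was higher (0.60, adjusted p = 0.276 without and 0.0217 with the block). Of 8 stellate cell and fibroblast markers 1, Dcn, was lower (−0.93, SE 0.21, adjusted p = 0.0328, limma), as on 2 of its 3 other probes (−1.04 and −0.80), and it did not pass without animal 1316 (−0.57, adjusted p = 0.16). Their sum was lower in every tumour, at 3327 to 5421 against 6965 to 8517. Col3a1, a fibrillar collagen of the same list, was above background in the 3 tumours only (0.51, adjusted p = 0.0605). Of 5 cholangiocyte markers 0 were called, with sums of 803 to 1258 in adjacent liver and 850 to 1258 in tumours, and the defining markers Krt7 and Krt19 were below background on all arrays. The part of these cell types in the differences above was not tested.

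Profiles over the 6 arrays were also compared gene by gene, as the root mean square difference of log2 signals after each profile was centred. Among 8289 other genes above background on at least 3 arrays, the nearest to Fos were Renbp (0.17), Rhoc (0.19) and Krt23 (0.21). The nearest to Jun were Kyat3 (0.08), Flcn (0.12) and H4c3 (0.13), and the nearest to Atf3 were Ccnd3, Mad2l1 and Mcm2 (each 0.13 or 0.14). The difference between tumours and adjacent liver was 1.79 for Renbp, 0.31 for Kyat3 and 1.40 for Ccnd3, and likeness over 6 arrays in 2 groups includes that difference.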

How the data were processed

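RNA of 3 tumours and 3 adjacent livers was read on Illumina bead arrays. The deposited intensity table holds linear signals that, from their values, were neither background-subtracted nor normalized between arrays. The authors' deposited log2 table ranks probes identically, and its sorted values lie within 0.00504 of the log2 mean sorted intensities, which is quantile normalization without background subtraction. GenomeStudio is named, per the submitters' processing notes, with no version or role.

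Intensities were corrected with normexp (offset 50), quantile-normalized and tested on the log2 scale with lmFit and eBayes in limma 3.58.1 (R 4.3.3), with p-values adjusted by Benjamini-Hochberg across the 45281 probes and called under 0.05. A gene was read from its brightest probe. The background level was the mode of an array's log2 signals plus 3 SDs mirrored from below it. A gene below it on all arrays of a group has a bound, from the lowest normalized signal above background ("at least"). The bound compares group means and leaves out their sampling error. Differences near background are understated because of the offset. Probe symbols, from the platform annotation, were updated by gene identifier, which changed 0. The fit was also run on simulated log2 values drawn independently for each array. These had no pairing, background correction or quantile normalization, so those steps were not checked.

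The pairing comes from the titles, against the source field for the tumour of 1316. Deviations from group means of paired arrays correlated at 0.41 (1293), 0.25 (1309) and 0.09 (1316) over 14026 probes. Arrays of different animals correlated at −0.27 to 0.03. Calls made with the animal as a block rest on this pairing. The animal as a block is an alternative, as are background correction, scaling, the authors' table, a filter on dim probes, the variance model (statmod 1.5.0), averaging of probes and leaving out each array. Members and lists were chosen with earlier results of these data known. Named genes are all members and, in other lists, up to 5 called genes in each direction with the smallest p. Other genes named were picked after their values were seen.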

Additional observations from a re-analysis of the deposited data

How the results depend on the processing

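Results were recomputed under 15 other settings and 1 more, added after the data were seen, that left out both arrays of animal 1316. The count of AP-1 and immediate early genes called higher stayed between 4 and 5 in all 16, and that of their probes between 5 and 6 wherever probes were kept apart. The number called lower was 0 to 1 when single arrays were left out, the 1 being Junb. The difference of Egr1 ran from −1.58 to 0.19 over those 6 fits and changed sign without the adjacent liver of 1293. With the animal as a fixed replicate block, 1 other early response gene was lower and 2 phosphatases or feedback inhibitors were higher. With it as a random replicate block, 1 gene of each of these lists was lower, as with an intensity trend and robust variances. With single arrays left out, 4 to 7 other early response genes were higher and 0 to 1 lower. The phosphatase list then gave 0 to 2 higher and 0 to 1 lower, against 2 higher with median scaling and 0 without both arrays of 1316. In the MAP kinase and SRF route the higher count fell to 0 with an offset of 16, the trend, averaged probes or no 1316 arrays, and the lower count to 0 with all of these except the trend, and with no background correction, median scaling or the authors' table. Leaving out arrays gave 0 to 1 higher and 0 to 2 lower. AP-1 target genes called higher were 1 with the trend or averaged probes. Probes called in all numbered 1012 without background correction and in the authors' table, which is that same processing, 787 with an offset of 16, 620 without 1316, and 666 (without the tumour of 1293) to 2509 (without that of 1309), against 1561. Of called genes, 70.0% were higher (694 and 298 lower), 85.3% with median scaling (755 and 130) and 80.7% without background correction (527 and 126). The causes of these changes were not tested. Signals at or below background limit Fosb, Jund, Atf3 and Batf3, for which only bounds or no fold can be read.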
